A study of Mus musculus with 9 samples.

Results

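Class I odorant receptor (OR) genes were followed in RNA sequencing of the main olfactory epithelium (MOE), the nasal tissue that holds the olfactory sensory neurons (OSNs). The genes were chosen by symbol, as Olfr543 to Olfr692 together with Olfr78 and Olfr33, which gave 117 of the 1125 OR genes counted and 117 of the 24421 genes in the count table. The 9 libraries came from mice at postnatal day 14 (P14), with the strain labelled C57BL/6. The study made its deletions in C57BL/6J zygotes and describes its mouse lines as kept on a mixed background of C57BL/6J and 129. There were 3 wild-type (WT) libraries, 3 heterozygous for a deletion of TAAR enhancer 2 (het) and 3 homozygous for it (homo). The deletion was made by CRISPR-Cas9 in zygotes and comes from 1 established line, so all het and homo libraries carry the same allele. WT mice were littermates according to the study, and no further allele or agent is named for any group. The figure legends of the study give the replicates of this sequencing as mice. The p-values here measure only the spread between these libraries.

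Mammalian OR genes fall into 2 classes, and class I genes are the group most like the receptors of fish. In the mouse they lie together in a single cluster on chromosome 7, interrupted by the beta-globin genes, and most of their OSNs sit in the dorsal part of the epithelium. Each OSN expresses a single OR gene, and a long-range enhancer called the J element acts over this cluster. Trace amine-associated receptor (TAAR) OSNs are also mostly dorsal. TAAR enhancer 2 lies in the Taar cluster on another chromosome, so the comparison asks whether losing it alters receptor genes outside its own cluster.

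Total counts per library ranged from 20527992 to 32262005. Levels are given in CPM, the read count of a gene relative to the library size after TMM (trimmed mean of M-values) scaling, and 3 counts corresponded to between 0.0928 and 0.147 CPM. Taar6, which neighbours the deleted element, separated the genotypes. It was at 6.27 to 6.62 CPM in WT, 4.42 to 5.23 CPM in het and 0.610 to 0.743 CPM in homo libraries. Of 19775 genes with at least 10 counts over all libraries, 113 were class I OR genes. Olfr564 and Olfr688 had no count in any library, and Olfr663 and Olfr574 had 4 and 7 counts in all. In whole tissue, fewer cells of a type and less RNA per cell cannot be told apart.

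The class I genes ranged from no count in any library to a mean of 12 CPM. In GENCODE release M21 on the mm10 (GRCm38) build they ran from Olfr543 (chr7:102476579-102481679) to Olfr692 (chr7:105368230-105369355). There were 68 genes before and 49 after the beta-globin genes, 61 on the plus and 56 on the minus strand. The mean level over the 9 libraries had a median of 2.65 CPM among the 117 genes, with quartiles of 1.66 and 4.09 CPM, against 2.47 CPM among the 1008 other OR genes. Their summed mean level was 362 CPM. The 10 highest genes held 23.5% of it and 30 genes held its first 50%, while 15 genes were under 1 CPM. A count was found in all 9 libraries for 111 genes.

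**Figure D1:**
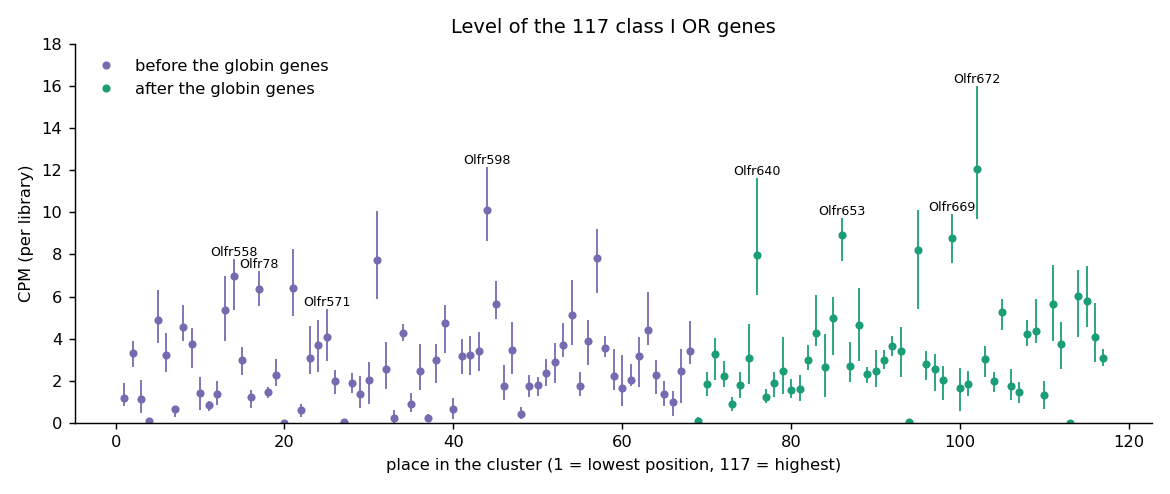
Level of each of the 117 class I OR genes in order of position (x axis, place in the cluster). Points are means over 9 libraries in CPM and vertical lines run from the lowest to the highest library; Olfr672 was highest, with a mean of 12 CPM, and genes with high and low levels stood side by side on both sides of the globin genes.

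Coding length was nearly the same across the cluster, with a median of 951 bases and quartiles of 942 and 957 bases, so levels could be compared per coding kilobase (kb). Olfr672 led at 12.9 CPM per coding kb. It was at 9.66, 11.1 and 12.9 CPM in the WT libraries, 9.84, 11.8 and 13.5 CPM in the het libraries and 9.70, 16.0 and 13.9 CPM in the homo libraries. The libraries of replicate number 1 were the lowest for Olfr672 in every genotype. Olfr598 followed at 10.6 CPM per coding kb, then Olfr653 at 9.39, Olfr669 at 9.24, Olfr665 at 8.67, Olfr640 at 8.45, Olfr615 at 8.33, Olfr578 at 8.24 and Olfr558 at 7.34. Olfr672 and Olfr598 overlapped in range (9.66 to 16.0 against 8.63 to 12.2 CPM), and the ranges of the genes from Olfr653 to Olfr558 overlapped with one another. The ranking depends on the length used, because annotated exon lengths ran from 936 to 8565 bases and only 3 of these 10 genes were also among the 10 highest per exon kb. Olfr643 also reached 12.9 CPM per coding kb, but its annotated coding part is 138 bases long. Its gene model overlaps the spans of 8 other members, from Olfr638 to Olfr646, and its level was 1.78 CPM.

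Because many class I genes are close copies, reads can be hard to assign. Over all pairs of the 116 members with a full coding sequence, the median identity of coding sequences was 58.3%. The median identity to the closest member was 75.4%, and 29 genes had a member at 90% identity or more. For 42 genes the closest member was the neighbour in the cluster. Of all 50-base stretches of a member's annotated transcripts, a median of 98.0% occurred in no other gene, but the share was under 80% for 19 members. It was lowest for Olfr688, at 15.8%, with 80.5% of its stretches shared with Olfr687. In Olfr564 it was 63.5%. Neither of these 2 genes had a count in any library, and whether their transcripts were absent was not tested. The closest pair was Olfr596 and Olfr603, with 5 differences in 939 bases. The following 120 bases of both genes (coding bases 361 to 480, GENCODE M21 transcripts on GRCm38) show how little separates them, with the 2 differing bases in capitals. The Olfr596 stretch is chr7:103310083-103310202 on the plus strand and the Olfr603 stretch is chr7:103383521-103383640 on the minus strand.
Olfr596: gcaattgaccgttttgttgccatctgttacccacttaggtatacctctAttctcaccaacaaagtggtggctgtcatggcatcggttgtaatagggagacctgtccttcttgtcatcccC
Olfr603: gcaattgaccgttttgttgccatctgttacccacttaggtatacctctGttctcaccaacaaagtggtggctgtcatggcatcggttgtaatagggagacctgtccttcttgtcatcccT
In Olfr603 only 24.0% of stretches were its own, and it was counted at 4 to 17 reads per library with a mean of 0.413 CPM, against 3.23 CPM for Olfr596. How the counting treated reads that match both is not stated, so the split between the pair is uncertain. The same holds, less strongly, for Olfr679 and Olfr681 (14 differences in 948 bases) and for Olfr611 and Olfr612 (24 in 972).

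Olfr33 and its neighbour Olfr559 are a more diverged pair, with 56 differences in 957 bases. The first 120 coding bases hold 20 of these, in capitals below (chr7:102714292-102714411 and chr7:102724369-102724488, both on the minus strand).
Olfr33: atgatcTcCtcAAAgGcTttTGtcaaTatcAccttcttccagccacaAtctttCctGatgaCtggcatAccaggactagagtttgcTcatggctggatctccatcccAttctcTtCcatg
Olfr559: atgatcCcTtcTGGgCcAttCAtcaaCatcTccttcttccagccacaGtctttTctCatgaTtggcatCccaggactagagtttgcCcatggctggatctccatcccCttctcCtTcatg
Their mean levels were 3.0 and 1.21 CPM. Olfr571, the member with the smallest p-value between genotypes, and Olfr672, the most abundant, had no such copy, with 60.2% and 70.5% identity to their closest members (Olfr609 and Olfr670). Their first 120 coding bases follow, with the start codon in capitals (Olfr571 at chr7:102909718-102909837, Olfr672 at chr7:104996783-104996902, both on the minus strand).
Olfr571: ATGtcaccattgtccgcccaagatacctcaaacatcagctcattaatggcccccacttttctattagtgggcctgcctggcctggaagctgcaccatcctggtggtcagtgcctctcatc
Olfr672: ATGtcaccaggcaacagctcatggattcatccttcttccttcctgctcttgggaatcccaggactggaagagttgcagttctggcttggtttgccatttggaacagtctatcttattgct

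Start sites in the annotation limit what can be said of class I promoters. RefSeq windows (GRCm38.p6, 250 bases before to 50 after the annotated start) were found for 100 of the 117 genes, but 88 of them start within 50 bases of the start codon and so describe the edge of the coding sequence. Olfr544 and Olfr566 have a RefSeq start well upstream of the coding part, within 6 bases of the GENCODE start. Their windows are shown because Olfr544 is a receptor with a known ligand and Olfr566 is among the members whose homo and WT libraries did not overlap. They lie at chr7:102488258-102488557 and chr7:102858716-102859015, both on the minus strand, and are in lower case since none of the motifs searched was found in them.
Olfr544: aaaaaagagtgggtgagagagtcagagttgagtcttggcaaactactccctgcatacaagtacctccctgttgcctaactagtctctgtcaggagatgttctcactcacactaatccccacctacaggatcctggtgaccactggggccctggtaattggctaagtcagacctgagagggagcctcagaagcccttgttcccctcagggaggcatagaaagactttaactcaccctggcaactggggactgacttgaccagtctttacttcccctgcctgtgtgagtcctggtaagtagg
Olfr566: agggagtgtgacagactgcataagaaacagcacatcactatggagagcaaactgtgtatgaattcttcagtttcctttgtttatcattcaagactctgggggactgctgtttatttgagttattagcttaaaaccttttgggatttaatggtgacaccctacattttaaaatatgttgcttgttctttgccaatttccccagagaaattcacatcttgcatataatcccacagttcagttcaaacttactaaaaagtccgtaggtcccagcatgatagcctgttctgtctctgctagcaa
Motifs were searched on both strands. They were the palindromic Ebf site, the homeodomain motif TAATTA, a second homeodomain motif with the letters TAATGA, and the TATA box, searched as TATAAA. Among the 100 class I windows, 0 held the Ebf motif, 36 held either homeodomain motif and 41 held TATAAA. Over all 27025 windows of the same length the shares were 0.914%, 14.1% and 14.2%, and over those of 844 other OR genes 0.592%, 41.4% and 41.1%. A match or its lack describes only these letters in these windows.

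Homozygous deletion was compared with WT first. None of the 113 class I genes was called different (edgeR quasi-likelihood test, Benjamini-Hochberg adjusted p under 0.05 and a fold change over 1.5), where 4 of all 19775 genes, 0.0202%, were called. At an unadjusted p under 0.05 there was 1 class I gene (0.885%), against 3.69% of other OR genes and 3.45% of all genes. DESeq2 and limma-voom also called 0 class I genes. Fitted log2 fold changes (homo minus WT) had a median of 0.14 among class I genes, with quartiles of −0.02 and 0.29, and 83 genes were above and 30 below 0. The median was 0.21 among 975 other OR genes, of which 83.5% were above 0, and 0.00398 among all genes. The class I median was 0.03 without homo replicate 2, 0.06 without WT replicate 1 and 0.23 without WT replicate 3.

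**Figure D2:**
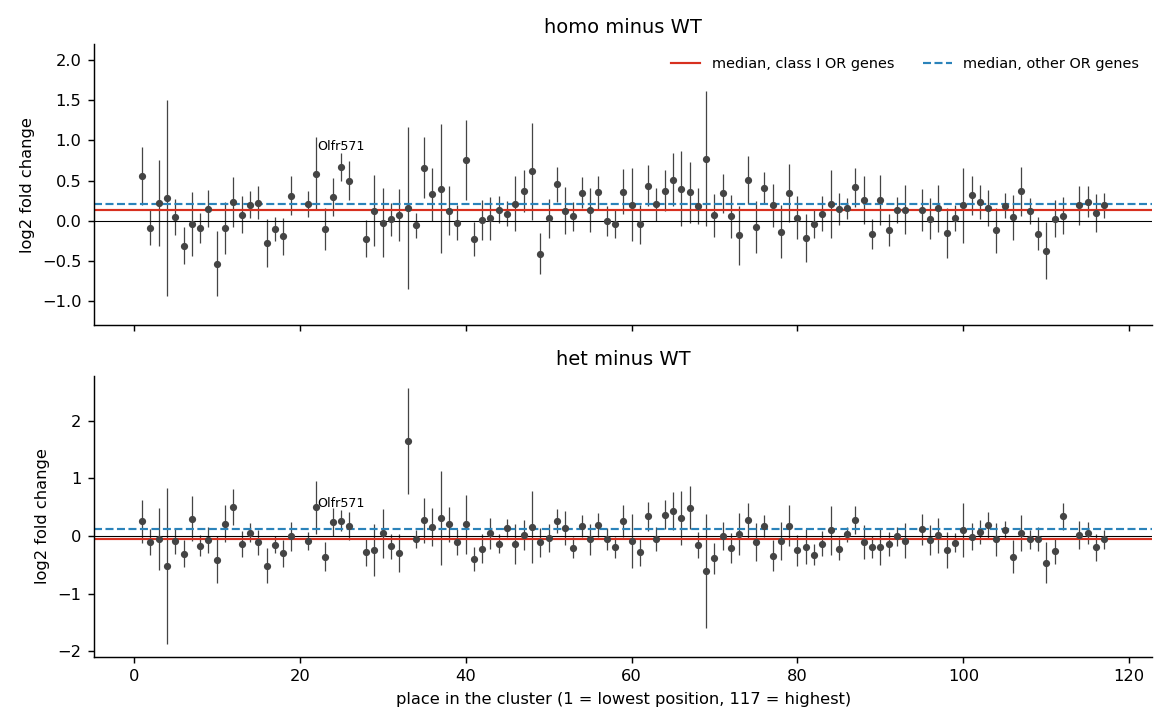
Fitted log2 fold change of the 113 tested class I OR genes in order of position, homo minus WT above and het minus WT below. Error bars are standard errors from the edgeR fit; solid and dashed lines are the medians of class I genes (0.14 and −0.05) and of other OR genes (0.21 and 0.13), and no gene passed the threshold.

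Olfr571 was the only class I gene with an unadjusted p under 0.05 between homo and WT libraries. It was at 2.94, 3.06 and 3.69 CPM in the WT libraries, 4.02, 3.48 and 4.20 CPM in the het libraries and 5.30, 4.66 and 5.43 CPM in the homo libraries, from 60 to 146 counts each. All homo libraries were above all het and WT libraries, and the het libraries overlapped the WT range. The log2 fold change was 0.67 ± 0.17 (SE, n = 3 per genotype) for homo minus WT, with an edgeR unadjusted p of 0.00371 and an adjusted p of 1. It was 0.40 ± 0.17 for homo minus het (unadjusted p 0.0461, adjusted p 1) and 0.27 ± 0.17 for het minus WT (unadjusted p 0.155, adjusted p 1.0). Over the alternative fits, homo minus WT ranged from 0.62 to 0.76 and its smallest adjusted p was 0.675. The gene therefore did not pass the correction for the number of genes tested, although it was higher in 3 of 3 homo libraries. The test over all genotypes gave an unadjusted p of 0.0110 and called 0 class I genes, against 1 gene in all, 0.00506%.

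Counts of genes whose libraries did not overlap were read against the share among all genes. In 8 class I genes (7.08%) all 3 homo libraries were above all 3 WT libraries, against 2.97% of all genes and 9.64% of other OR genes. These were Olfr566, Olfr571, Olfr572, Olfr608, Olfr640, Olfr653, Olfr671 and Olfr692. In 0 class I genes were all homo libraries below WT, against 2.71% of all genes and 0.41% of other OR genes. Olfr640 was at 7.06, 6.09 and 7.56 CPM in WT, 7.71, 8.61 and 7.09 CPM in het and 7.66, 11.6 and 8.21 CPM in homo libraries. The nearest WT and homo libraries were almost level, and homo replicate 2 was above all others. The log2 fold change was 0.41 ± 0.19 (SE; unadjusted p 0.0584, adjusted p 1 by edgeR) and 0.20 without that library. Olfr572, at 1.37 to 2.14 CPM in WT and 2.16 to 2.49 CPM in homo libraries, gave 0.50 ± 0.24, and Olfr608, at 1.77 to 2.36 and 2.54 to 3.01 CPM, gave 0.45 ± 0.21. Olfr692 was at 2.94 to 3.06 CPM in WT and 3.31 to 3.49 CPM in homo libraries, a log2 fold change of 0.19 ± 0.16 (unadjusted p 0.262 by edgeR).

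**Figure D3:**
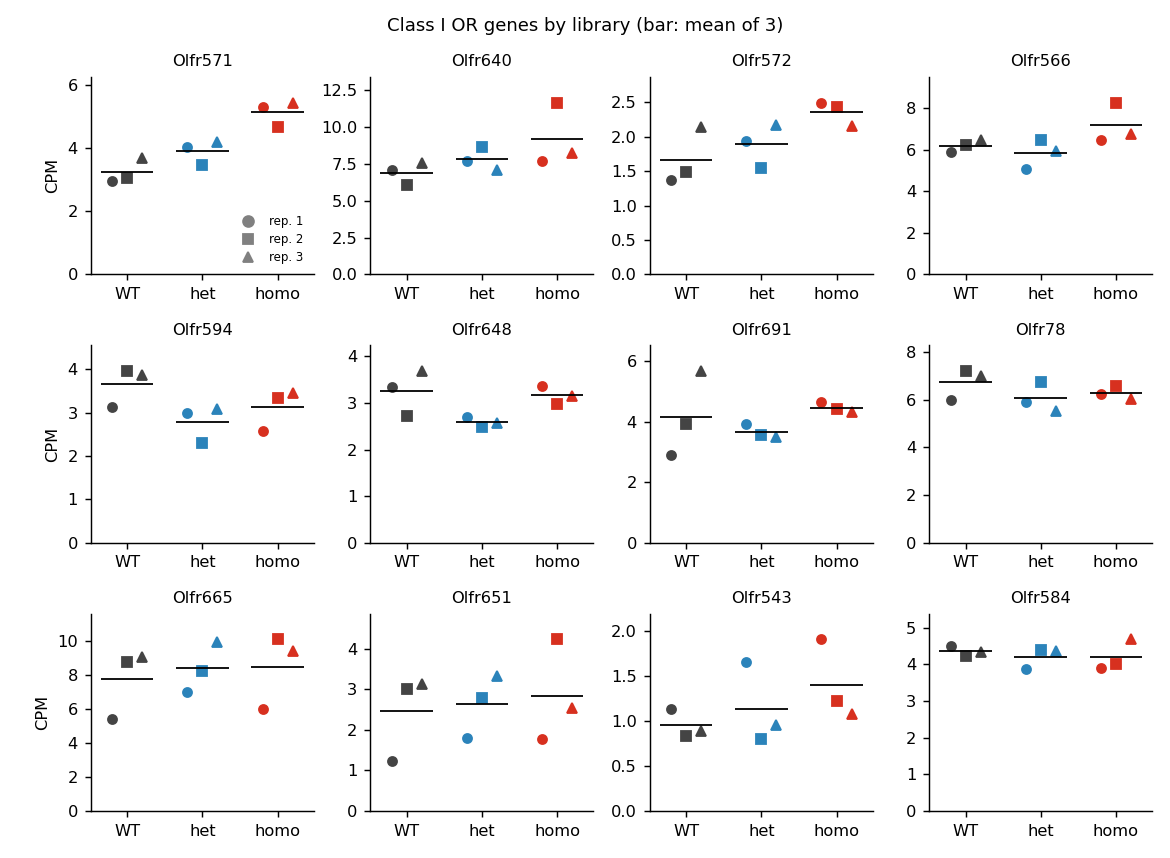
Level in CPM of 12 class I OR genes in each library, with genotype on the x axis, replicate number as symbol shape and the mean of 3 libraries as a bar; each y axis starts at 0. The homo libraries of Olfr571 lie above all others, and the libraries of replicate number 1 are lowest within each genotype for Olfr665 and Olfr651 and highest for Olfr543.

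Heterozygous deletion was then compared with the same WT libraries. edgeR called 0 of 19775 genes, or 0%, while 253 genes had an unadjusted p under 0.05, of which 0 were class I genes. DESeq2 and limma-voom also called 0 class I genes. The median log2 fold change (het minus WT) of class I genes was −0.05, with 47 genes above and 66 below 0, whereas the other OR genes had a median of 0.13 with 73.3% above 0. In 7 class I genes (6.19%) all het libraries were below all WT libraries, against 1.95% of all genes and 0.923% of other OR genes. In 1 gene, Olfr617, they were all above, against 2.01% of all genes and 6.97% of other OR genes. The 7 genes were Olfr559, Olfr560, Olfr594, Olfr610, Olfr648, Olfr656 and Olfr684. Olfr594 was at 3.14, 3.96 and 3.87 CPM in WT and at 2.98, 2.30 and 3.09 CPM in het libraries, a log2 fold change of −0.39 ± 0.21 (SE; unadjusted p 0.0898, adjusted p 1.0 by edgeR). Its homo libraries, at 2.58, 3.34 and 3.46 CPM, overlapped both groups. Olfr648 was at 2.72 to 3.69 CPM in WT, 2.49 to 2.70 CPM in het and 2.98 to 3.35 CPM in homo libraries, and Olfr559 at 1.32 to 1.55, 0.710 to 1.32 and 0.907 to 1.40 CPM. Olfr583, among the 4 smallest p-values, rests on 5, 4 and 0 counts in WT, 3, 10 and 15 in het and 3, 2 and 5 in homo libraries. No fold is given for it.

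Homo and het libraries were also compared, in values that share the het or homo libraries with the comparisons above. Among all genes 1 was called, 0.00506%, and among class I genes 0. At an unadjusted p under 0.05 there was 1 class I gene (0.885%), against 0.923% of other OR genes and 0.662% of all genes. The median of class I genes was 0.16 (homo minus het), with 91 genes above and 22 below 0, against a median of 0.08 and 65.4% above 0 among other OR genes. In 12 class I genes (10.6%) all homo libraries exceeded all het libraries, against 2.35% of all genes and 5.64% of other OR genes. In 0 class I genes were they all lower, against 1.81% of all genes and 1.13% of other OR genes. The 12 genes were Olfr566, Olfr571, Olfr616, Olfr630, Olfr633, Olfr641, Olfr648, Olfr652, Olfr659, Olfr681, Olfr691 and Olfr692. Olfr566 was at 5.06, 6.46 and 5.94 CPM in het and 6.48, 8.25 and 6.76 CPM in homo libraries, so the nearest libraries were almost level, and the log2 fold change was 0.30 ± 0.16 (SE; unadjusted p 0.0981, adjusted p 1 by edgeR). Olfr641 was at 0.944 to 1.04 CPM in het and 1.23 to 1.61 CPM in homo libraries, and Olfr652 at 3.22 to 4.91 and 5.06 to 5.99 CPM.

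Single libraries weighed on these comparisons. WT replicate 1 held the lowest level of 43 class I genes (38.1%) and of 24.4% of other OR genes, against 15.1% of all genes. WT replicate 3 held the highest level of 22 class I genes, 19.5% of those tested, near the 21.1% of all genes, and of 5.74% of other OR genes, 26.2% of which were lowest there. Class I genes took 9.38%, 9.09% and 11.6% of all OR counts in WT replicates 1, 2 and 3, with 8.72% to 9.49% in the het group and 8.98% to 10.2% among homo libraries. WT replicate 3 was thus the highest of all 9 libraries. The marker values in that library were mixed. Of 4 genes listed as dorsal-zone markers Nqo1 was highest there (179 CPM, against 130 to 166 CPM elsewhere). Acsm4 (301 CPM), Robo2 (146 CPM) and Nfia (46.0 CPM) were low. Nfia is also on the list of OR choice regulators, and its zone was not checked here. Of 4 ventral-zone markers Ncam2 was lowest there (72.4 CPM, against 111 to 127 CPM). Nrp2 (270 CPM), Plxna1 (358 CPM) and Fam3b (0.295 CPM) lay within the range of the other libraries. The summed level was 671 CPM for the dorsal list, Nfia included, against 716 to 809 CPM elsewhere. It was 701 CPM for the ventral list, against 705 to 898 CPM. The summed level of 8 secretory gland markers was highest there, at 9472 CPM against 5421 to 7433 CPM, but single markers differed. Bpifb4 (4034 CPM), Muc5b (2401 CPM) and Lcn4 (277 CPM) were highest there, while Bpifb5 (21.9 CPM) and Bpifb9a (220 CPM) were lowest. Bpifb3, Lcn3 and Obp2a lay between. Trim30a, an immune gene next to the OR genes of the cluster, was at 39.8 CPM there and at 5.16 to 13.1 CPM elsewhere. The part of these differences in the class I values was not tested.

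Without WT replicate 3 the class I median rose relative to the other OR median in both WT comparisons. The class I minus other OR difference in median log2 fold change went from −0.08 to 0.05 for homo minus WT and from −0.18 to −0.06 for het minus WT. The class I share of OR counts differed by −0.44 percentage points between homo and WT with that library and by 0.36 without it. Between het and WT it differed by −0.99 with and −0.19 without it. Leaving out that library, all homo libraries were above WT in 25 class I genes (22.1%) against 5.67% of all genes and 13.6% of other OR genes, and below in 2 genes (1.77%) against 5.27% of all genes. All het libraries were then above WT in 13 class I genes (11.5%) against 4.36% of all genes and 11% of other OR genes, and below in 10 (8.85%) against 4.45%. The het comparison thus moved from mostly lower to both directions. These counts without a library were added after seeing the data.

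Homo replicate 2 held the highest level of 39 class I genes (34.5%) and of 32.1% of other OR genes, against 8.72% of all genes. It also had the highest sum of mature OSN markers, 8114 CPM against 7030 to 7634 CPM elsewhere. Omp, Gnal, Adcy3, Cnga2, Stoml3 and Cnga4 were highest there, while Ano2, Gng13, Rtp1 and Cngb1 were each higher in another library. The gland sum was lowest there, at 5421 CPM, almost level with the 5473 CPM of homo replicate 3. Homo replicate 2 also had the highest sum of sustentacular markers, 9081 CPM against 6507 to 8584 CPM elsewhere. Without it, all homo libraries were above WT in 10 class I genes (8.85%) against 5.47% of all genes and 12.1% of other OR genes, and below in 6 (5.31%) against 5.05% of all genes. They were above het in 14 (12.4%) against 4.77% of all genes and 7.69% of other OR genes, and below in 3 (2.65%) against 4.33% of all genes.

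**Figure D4:**
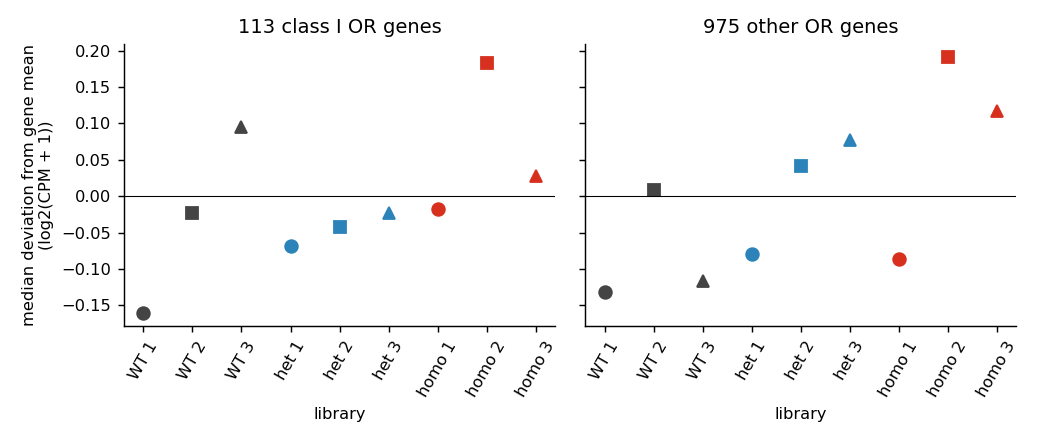
Median deviation of genes from their own mean over the 9 libraries, on the log2(CPM + 1) scale, for 113 class I (left) and 975 other (right) OR genes in each library. WT replicate 3 is above 0 for class I genes (0.09) and below 0 for other OR genes (−0.12), while homo replicate 2 is highest in both.

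Summed levels followed the same libraries. Class I genes together reached 312, 350 and 399 CPM in WT replicates 1 to 3, 336, 348 and 359 CPM in het and 360, 425 and 373 CPM in homo libraries. All homo libraries were above all het libraries, the nearest of which were almost level, and the WT libraries overlapped both groups. The mean was 354 ± 43.5 CPM in WT, 347 ± 11.3 CPM in het and 386 ± 34 CPM in homo libraries (SD, n = 3). The homo sum was 109% of WT, 117% when WT replicate 3 was left out and 104% when homo replicate 2 was. The het sum was 98.2% of WT, or 105% without WT replicate 3. The homo sum was 111% of het, and 106% without homo replicate 2. Other OR genes summed to 115% of WT in homo and 110% in het libraries. Within replicate number 1 the class I sum in homo was 116% of WT, and within numbers 2 and 3 it was 107%.

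**Figure D5:**
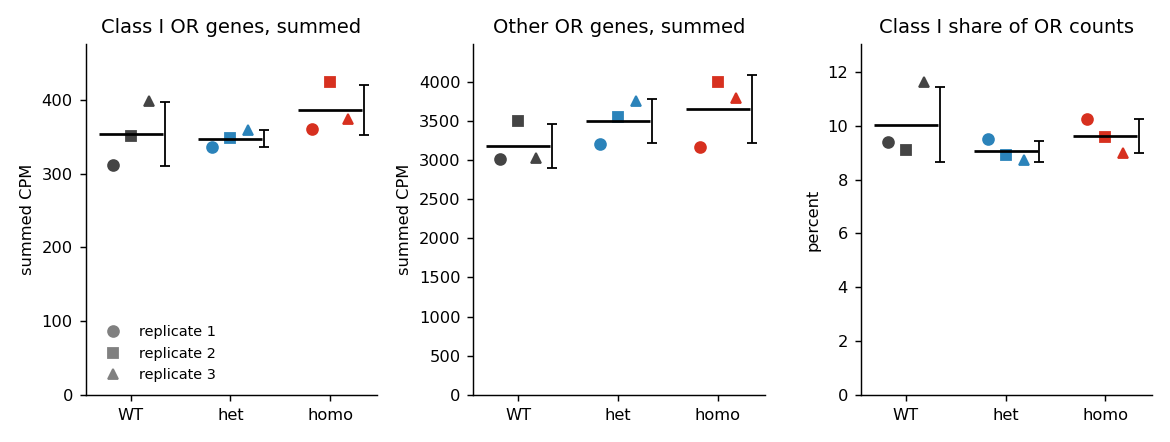
Summed level of class I OR genes (left) and of other OR genes (middle) in CPM, and class I share of all OR counts in percent (right), for each library by genotype. Symbols mark replicate numbers, bars the mean and whiskers the SD of 3 libraries; homo libraries lie just above het libraries in the left panel, the genotypes overlap otherwise, and WT replicate 3 has the highest share, 11.6%.

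Class I receptors with known ligands or other roles were not called in any genotype comparison. Olfr78, a receptor for short-chain fatty acids that is also known outside the nose, was at 5.98, 7.2 and 7.0 CPM in WT, 5.91, 6.76 and 5.54 CPM in het and 6.26, 6.6 and 6.02 CPM in homo libraries. Its log2 fold change was −0.10 ± 0.15 (SE) for homo minus WT. The Olfr78 span overlaps that of Olfr560 on the same strand, and only 55.9% of the stretches of Olfr560 were its own. Olfr558, the other mouse relative of a human receptor pair expressed outside the nose, was at 5.35 to 7.41 CPM in WT and 7.40 to 7.64 CPM in homo libraries, with a difference of 0.20 ± 0.17. Olfr544, a receptor for azelaic acid, was at 2.8 to 3.8 CPM in WT, 2.64 to 3.74 CPM in het and 2.83 to 3.90 CPM in homo libraries, so the groups overlapped almost fully, at −0.09 ± 0.22. Its closest copy Olfr545, at 91.0% coding identity, varied more, from 0.483 to 2.04 CPM within the homo group alone.

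Olfr690, which responds to isovaleric acid, was at 4.56, 4.98 and 6.67 CPM in WT, 5.49, 5.55 and 5.78 CPM in het and 5.35, 7.46 and 6.32 CPM in homo libraries, a homo minus WT difference of 0.24 ± 0.19 (SE). Its neighbour Olfr691 showed how much WT replicate 3 could weigh. It was at 2.89, 3.93 and 5.68 CPM in WT, 3.93, 3.55 and 3.49 CPM in het and 4.67, 4.41 and 4.31 CPM in homo libraries. The log2 fold change of homo minus WT was 0.10 ± 0.24 with and 0.37 without that library. Olfr33 differed by 0.23 ± 0.21, Olfr552 by −0.09 ± 0.18 and Olfr578 by 0.02 ± 0.21. Olfr552 and Olfr578 served the study as control receptors. Olfr584 was the steadiest member with at least 50 counts on average, from 3.88 to 4.68 CPM over all 9 libraries.

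The study stained sections of mice with TAAR enhancer reporter transgenes, not of the deletion line, with a probe mix for 8 class I genes. The genes were Olfr543, Olfr547, Olfr552, Olfr639, Olfr653, Olfr672, Olfr690 and Olfr692. These were taken up here after their values had been seen. Their summed level was 32.7 to 42.7 CPM in WT, 35 to 40.5 CPM in het and 38.5 to 45.4 CPM in homo libraries, with overlap between all genotypes. The log2 fold changes of homo minus WT ran from −0.09 to 0.56 with a median of 0.21, 6 above and 2 below 0. Olfr547 contributed little, with 0 to 8 counts per library.

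Both sides of the cluster gave similar values. The 66 tested genes before the beta-globin genes and the 47 after them had median log2 fold changes of 0.15 and 0.14 for homo minus WT, −0.05 and −0.06 for het minus WT, and 0.16 and 0.17 for homo minus het. Mean levels had a median of 2.46 CPM before and 2.79 CPM after them. Fold changes above and below 0 were found on both sides, as the plot by position shows. For homo minus WT, 47 genes were above and 19 below 0 before the beta-globin genes, and 36 and 11 after them. For het minus WT these counts were 30 and 36 before, and 17 and 30 after them.

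Replicate number, in contrast, separated some class I genes, at a share near that of all genes. In libraries of replicate number 1 against numbers 2 and 3, with genotype in the fit, 12 class I genes (10.6%) were called, 1 higher and 11 lower. This is near the 8.95% of all genes and below the 14.2% of other OR genes. At an unadjusted p under 0.05 by edgeR there were 23.9% of class I genes, against 30.7% of other OR genes and 42.6% of all genes. The median log2 fold change was −0.17 among class I, −0.22 among other OR and −0.03 among all genes. Olfr665 was at 5.4, 7.0 and 5.98 CPM in the number 1 libraries of WT, het and homo, and at 8.27 to 10.1 CPM in the other 6, a difference of −0.60 ± 0.11 (SE; adjusted p 0.0053 by edgeR). Olfr651, the gene with the widest range, was at 1.23, 1.80 and 1.77 CPM against 2.53 to 4.23 CPM, a difference of −0.99 ± 0.21 (adjusted p 0.00847). Olfr543 was the member called higher, at 1.13, 1.66 and 1.90 CPM against 0.793 to 1.22 CPM, a difference of 0.69 ± 0.20 (adjusted p 0.0281). Olfr672 and Olfr601 had adjusted p-values of 0.0174 and 0.0189 but changes of −0.43 and −0.54, under the fold limit. What the number stands for is not stated. The count was 1 without WT replicate 1, 3 or 4 when homo replicate 2 or 1 was left out, 5 when het replicate 1 was, and 7 when het replicate 2 or 3 was or with limma-voom.

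The genes through which OR genes are chosen and read out were not called between genotypes either. Of 17 genes of OSN signalling and receptor transport, such as Gnal and Adcy3, 0 were called in any genotype comparison, and their log2 fold changes of homo minus WT ran from −0.11 to 0.23. Of 20 regulators of OR choice, 0 were called, with values from −0.04 to 0.13. Among them Bcl11b, known to restrain class I choice, was at 89.7 to 140 CPM in WT and 106 to 130 CPM in homo libraries, and Lhx2, a homeodomain factor of OR enhancers, at 183 to 374 and 213 to 361 CPM. Both were highest in the libraries of replicate number 1, where 4 of the 20 regulators were called higher and 0 lower. Of 29 other genes among or beside the cluster, 18 were tested and 0 were called between genotypes.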

How the data were processed

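RNA of the whole MOE was polyA-selected and made into strand-specific libraries. Per the submitters' processing notes and the study's methods, reads were trimmed with Trimmomatic 0.36 and mapped to mm10 with HISAT2 2.1.0. The authors deposited raw counts per gene symbol from featureCounts (Subread 1.6.2). They also deposited a signal, normalized counts made with DESeq2 1.20.0, which were checked here to be the raw counts divided by 1 size factor per library. The annotation release, strand option and treatment of multi-mapped reads are not given in the sources used here, so levels per length and values of close copies are approximate. 

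Raw counts of genes with at least 10 counts over the 9 libraries were fitted and tested in edgeR 4.0.16 by quasi-likelihood (R 4.3.3, TMM, 1 spread estimate for all genotypes, two-sided), with Benjamini-Hochberg adjustment over all genes. A gene was called at an adjusted p under 0.05 and a fold change over 1.5. The test over any genotype had no fold limit. Standard errors come from the fitted model. The common biological coefficient of variation was 23.3%, and class I genes had a median of 22.5%. Counts of 3 or fewer were treated as the floor; floors and depths cover counting error only. DESeq2 1.42.0 and limma-voom 3.58.1 were alternatives. The homo against WT fit of each of these tools was run on simulated counts with known changes.

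Replicate numbers were checked as pairs by correlating the deviations of libraries from their group means over 16156 genes. Replicates 1, 2 and 3 gave 0.689, 0.468 and 0.573 for WT with het, and 0.822, 0.387 and 0.230 for het with homo. For WT with homo they gave 0.541, 0.345 and −0.083. With 0.1 required of each pair, het met this limit with both other genotypes, whereas homo and WT did not. The het replicate 2 library correlated more with homo replicate 3 (0.595).

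Members and gene lists were chosen with earlier results of these data known. Genes named are those of known ligand or use (Olfr78, Olfr33, Olfr558, Olfr544, Olfr545, Olfr552, Olfr578, Olfr690, Olfr691, Olfr692), the 10 highest per coding kb, the 4 smallest p-values of each comparison, of which the replicate number comparison is 1, cluster ends and the extremes of spread; close copies, non-overlapping genes and the stained genes were added after their values were seen. Marker lists of mature and immature OSNs, basal, sustentacular, ciliated, gland, blood and zonal cells had 0 calls between genotypes. Coding sequences were aligned with Biopython 1.88.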

Additional observations from a re-analysis of the deposited data

How the results depend on the processing

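No class I gene was called between genotypes under any of the alternatives run, namely other scalings, filters and tools, a term for replicate number 1, fits of 2 genotypes and leaving out each library. The count called between replicate number 1 and the others was 7 with limma-voom and ranged from 1 to 13 when single libraries were left out. The class I median log2 fold change ranged from 0.0338 to 0.23 for homo minus WT, −0.11 to 0.04 for het minus WT and 0.0642 to 0.20 for homo minus het over single left-out libraries. The lowest values of the first and the last came without homo replicate 2. The class I minus other OR difference ranged over the same libraries from −0.14 to 0.0497, −0.22 to −0.0575 and 0.02 to 0.15, and moved beyond the spread of libraries for both WT comparisons without WT replicate 3. Without homo replicate 2 the medians of homo minus WT and of homo minus het also moved beyond the spread of libraries. The remaining settings moved no median or difference beyond that spread. Of 607 alternative values for 32 named genes, homo minus WT, 580 kept their sign and 0 passed the threshold. Among them 2 moved by more than 1 SE, Olfr691 to 0.37 without WT replicate 3 and Olfr640 to 0.20 without homo replicate 2.

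With the replicate number as a block, 0 class I genes were called in each comparison, and the medians were 0.15, −0.05 and 0.16 for homo minus WT, het minus WT and homo minus het. The test over all genotypes with this block also called 0 class I genes. Calls of other genes under this block were not compared. Groups of 3 libraries were not searched for outliers. At a median of 68 counts per gene and library, small differences of single class I genes were not detectable.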

Other observations

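A further 7 OR genes lie between Olfr543 and Olfr692 but have lower numbers and were counted among the other OR genes. Olfr65, Olfr67 and Olfr69 were the most abundant, with means of 8.83, 6.67 and 5.74 CPM, and Olfr64, Olfr68, Olfr66 and Olfr243 were at 3.18, 2.84, 1.24 and 0.817 CPM. None was called between genotypes by edgeR, and their log2 fold changes of homo minus WT ran from −0.05 to 0.20. Olfr67 was at 9.88 CPM in WT replicate 3, above its 4.95 to 7.68 CPM in the other 8 libraries, and Olfr65 was also highest there (10.1 CPM).

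Of the Trim genes listed among or beside the class I OR genes, Trim30a, Trim30b, Trim30d, Trim21, Trim34a, Trim12a and Trim12c were highest in WT replicate 3. Trim30d was at 18.6 CPM there against 3.02 to 7.05 CPM elsewhere and Trim21 at 28.7 CPM against 9.82 to 14.5 CPM.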
